A study of Mus musculus with 43 samples.

Results

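The genes described here encode the proteins of the cytosolic ribosome. They were chosen by symbol, as Rpl or Rps followed by a number, with Rpsa, Rplp0, Rplp1, Rplp2 and Fau added and with the S6 kinases and named pseudogenes left out. The deposited files list 85 such genes, 51 of the large and 34 of the small subunit, among 23953 gene symbols. A gene was tested in a set of libraries when its mean there was at least 1 FPKM (fragments scaled for transcript length and library size), which kept 81 of 12567 tested genes in CK-p25 neurons, 81 of 12239 in P301S neurons and 82 of 10394 in CK-p25 microglia.

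The study sequenced RNA from visual cortex of mouse models of neurodegeneration, with and without GENUS, a treatment with light flickering at 40 Hz. Neuronal nuclei were sorted by staining for NeuN and gave nuclear RNA for a total RNA kit, and microglia, sorted with antibodies to CD11b and CD45, gave total RNA for a full-length cDNA kit. The 43 libraries form 3 sets of 3 groups, and each set was compared within itself. CK-p25 mice carry a Camk2a-tTA driver and a tetO-CDK5R1/GFP transgene, which together make the Cdk5 activator p25 in forebrain neurons and not in microglia, and p25 had been induced for 6 weeks.

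The CK-p25 neuron set has 5 CK libraries, from mice that the labels call wild type controls, 5 from untreated CK-p25 mice and 4 from CK-p25 mice given GENUS for 43 days. In the microglia set each of the same 3 groups has 4 libraries. P301S mice carry human tau with the P301S mutation under the prion protein promoter (line PS19). They were 8 months old and gave 6 untreated libraries and 5 libraries after 22 days of GENUS, beside 6 wild type libraries. Neither the ages of the other mice nor the number of animals behind each library is stated. Whether each replicate is another animal is not labelled, so p-values rest on the spread between libraries, which may be technical.

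Ribosomal proteins are made in matched amounts and assembled with ribosomal RNA in the nucleolus into the large subunit, which joins amino acids, and the small subunit, which reads the messenger RNA. Their mRNAs begin with a C and a run of pyrimidines, the 5′ terminal oligopyrimidine (TOP) motif, through which mTOR signalling and the RNA-binding protein Larp1 control their translation and stability. In brain, these mRNAs lie mostly in the cytoplasm, so nuclear RNA holds only part of them, and macrophages and microglia change their protein synthesis when they are activated.

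Reference windows from 250 bases before to 50 after the start were found in the RefSeq promoter table (GRCm38.p6) for 64 of the 85 genes, 76 windows in all. Windows of 6 genes are shown from 100 bases before to 20 after the start, because these genes differ in how far their mRNA rose in CK-p25 microglia. They are the 3 with the largest rise among genes with 1 window, the ubiquitin-like fusion gene Fau, and the paralogs Rpl22l1 and Rpl7l1. Windows picked in this way cannot show whether a motif goes with the rise, and that relation was not tested. Capitals mark the ETS-type motif CCGGAAG on either strand, or a run of at least 8 pyrimidines that begins with C, within 20 bases of the start. In the order printed, the windows are chr10:128549149-128549268, chrX:37085203-37085322, chr17:33955646-33955765, chr19:6057847-6057966, chr3:28805408-28805527 and chr17:46782637-46782756. The windows of Fau and Rpl22l1 are on the plus strand, and those of the other 4 genes are on the minus strand.
Rpl41: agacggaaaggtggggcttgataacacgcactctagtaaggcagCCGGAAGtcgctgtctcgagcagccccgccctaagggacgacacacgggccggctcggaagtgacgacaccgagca
Rpl39: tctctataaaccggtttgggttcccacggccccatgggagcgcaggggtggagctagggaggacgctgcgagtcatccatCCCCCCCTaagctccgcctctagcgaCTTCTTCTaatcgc
Rps18: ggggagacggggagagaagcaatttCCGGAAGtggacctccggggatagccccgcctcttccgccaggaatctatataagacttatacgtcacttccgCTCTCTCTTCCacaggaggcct
Fau: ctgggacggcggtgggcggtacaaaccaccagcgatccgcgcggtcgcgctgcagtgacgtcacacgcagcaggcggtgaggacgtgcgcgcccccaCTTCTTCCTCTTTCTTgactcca
Rpl22l1: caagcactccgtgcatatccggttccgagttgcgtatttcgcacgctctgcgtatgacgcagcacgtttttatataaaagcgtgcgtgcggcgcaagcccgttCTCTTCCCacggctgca
Rpl7l1: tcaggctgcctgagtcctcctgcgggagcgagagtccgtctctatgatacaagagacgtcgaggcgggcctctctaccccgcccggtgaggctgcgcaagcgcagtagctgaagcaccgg

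Over all windows of the family, 32 of 76 (42.1%) held a pyrimidine run of at least 8 bases within 20 bases of the start, against 12.6% of the 32851 windows in the table and 12.8% of the windows of other genes tested in microglia. A run of at least 6 bases was in 57.9% of the family's windows, 29.4% of all windows and 29.6% of those of other genes tested in microglia. CCGGAAG, searched on both strands over the 300 bases, was in 35.5% of the family's windows, in 8.86% of all windows and in 18.7% of those of other genes tested in microglia. AAGATGG, the core recognised by YY1, was in 17.1% of the family's windows, 6.34% of all windows and 7.54% of the windows of other genes tested in microglia. GGGCGG, the GC box bound by Sp1, was in 60.5% of the family's windows, 35.7% of all windows and 62.6% of the windows of other genes tested in microglia. These are matches of letters in the reference, with no measurement of binding.

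Levels differed between the kinds of library. Median FPKM over the 85 genes was 5.69 in CK neurons, 6.25 in wild type neurons and 49.2 in CK microglia. For the 78 genes at 1 FPKM or more in both CK groups, the level in CK microglia was a median of 6.56 times that in CK neurons, and 3.12 times when each library was rescaled to the summed FPKM of genes that are neither small RNA nor in the family. In 76 of the 85 genes every CK microglia library lay above every CK neuron library, and Rps15a, a small subunit protein, lay below in each. Cell type, nuclear against total RNA and kit changed together between these sets and cannot be told apart, so no test was made. Small RNA genes took 71.6% to 84.0% of summed FPKM in CK-p25 neurons and 0.0996% to 0.186% in microglia.

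In both neuron sets the highest member was Rplp1, which with Rplp2 forms the flexible stalk that recruits elongation factors. Its mean was 46.1 FPKM in CK-p25 neurons and 63.0 FPKM in P301S neurons. Rpl4 and Rpl13a followed, at 33.6 and 32.4 FPKM in CK-p25 neurons. The lowest members tested there were Rpl24, Rps27l and Rpl18, at 1.18, 1.24 and 1.34 FPKM. In microglia Rpl32 was highest, at 517 FPKM, Rps14 was at 386 FPKM, and the lowest tested were Rps15a at 5.86, Rps27 at 6.40 and Rpl22 at 16.4 FPKM. The order of levels was alike in the CK and wild type neurons (Spearman rho 0.876 across the 85 genes) and less so between CK neurons and CK microglia (rho 0.327), a description across genes that share libraries and lengths.

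The 3 paralogs restricted to other tissues were at or near 0. Rpl10l, known from testis, was listed at 0 in all 31 neuron libraries and averaged 0.00409 FPKM in microglia. Rpl39l, also known from testis, was listed at 0 in all neuron libraries and averaged 0.452 FPKM in microglia. The muscle paralog Rpl3l averaged 0.351 FPKM in CK-p25 neurons and 0.0286 FPKM in microglia. Rps27l, a p53-responsive paralog of Rps27, differed from them: it averaged 1.24 FPKM in CK-p25 neurons and 0.255 FPKM in P301S neurons, but 183 FPKM in microglia, where the lowest library was at 90.4 FPKM.

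Copies limit some values. The family has many processed pseudogenes, so a symbol's FPKM can hold reads of a near-identical copy or lose reads to one, and how the authors counted such reads is not given in the sources used here. Rpl26, a protein at the peptide exit, was under 0.1 FPKM in 27 of the 31 neuron libraries and at 3.98, 11.8, 19.3 and 23.3 FPKM in the other 4. In a single CK-p25 neuron library 4 to 13 of the 85 genes were listed at exactly 0, in a P301S neuron library 5 to 23 and in a microglia library 0 to 3. An exact 0 is reported only as a listing, since the depth of the libraries is unknown. The median coefficient of variation between replicates was 38.9% to 63.0% in the neuron groups and 7.66% to 9.80% in the microglia groups, so a change of a given size is less easily seen in neurons.

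Microglia were first compared between untreated CK-p25 and CK mice, which asks how microglia differ when the neurons around them make p25. Of the 82 genes tested, 78 were higher in CK-p25 microglia and 0 were lower, by limma on log2(FPKM + 1) with p-values adjusted over all 10394 genes by the Benjamini-Hochberg method and a threshold of 0.05. Of all tested genes, 16.1% were called higher and 10.9% lower. The same 95.1% of the family, 78 genes, had every CK-p25 library above every CK library, against 15.9% of all genes, and 0 lay wholly below, against 12% of all genes. Estimates above 0 were found in 80 of the 82 genes and 47.7% of all genes, and an unadjusted p under 0.05 in 79 of the 82 and 37.1% of all genes. The median difference over the 82 genes was 1.09 on the log2 scale (all genes, -0.02), and the 78 called genes rose by 1.57 to 3.18 times in mean FPKM. A difference of at least 1 on the log2 scale was seen in 47 of the 82 genes and 7.21% of all genes. In bulk RNA of sorted cells, a change in the number of cells of a type and a change in RNA per cell cannot be told apart.

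The summed FPKM of the 85 genes shows the size of this difference. It was 5381, 5177, 5725 and 5025 in the CK libraries, 11389, 12715, 11446 and 11101 in untreated CK-p25 libraries and 13654, 12857, 13769 and 12415 after GENUS. The CK libraries did not overlap the others, and the highest untreated CK-p25 library lay above the lowest GENUS library. Untreated and GENUS libraries of the same number deviated together over all genes, though no label pairs them. At each of the 4 numbers the sum and the family's median deviation were higher after GENUS. As a share of the summed FPKM outside small RNA, the family took 1.06% to 1.20% in CK, 1.82% to 2.05% in CK-p25 and 2.13% to 2.27% in CK-p25 microglia after GENUS.

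**Figure D1:**
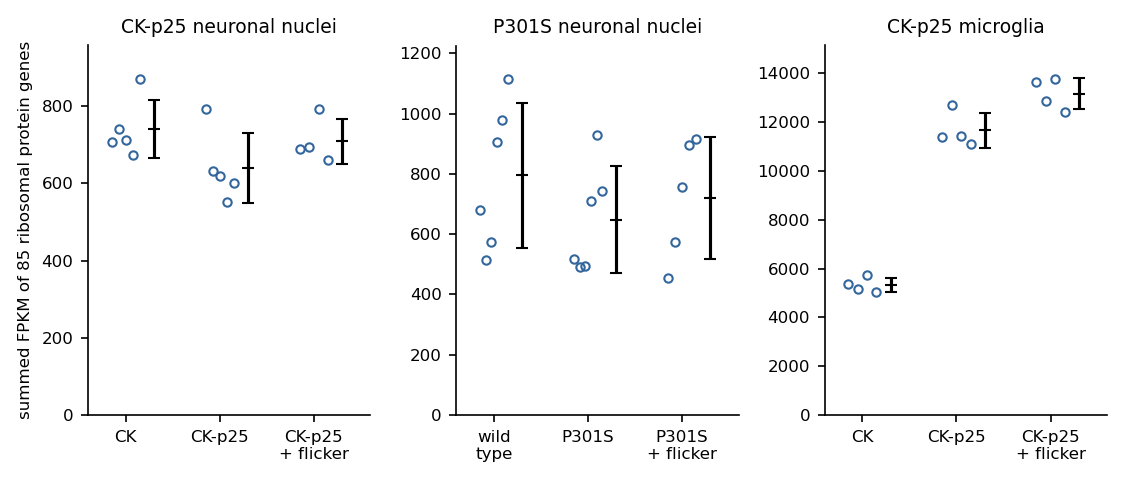
Summed FPKM of the 85 ribosomal protein genes in each library, by group (circles, 1 per library, with mean and SD beside them), in 3 panels with separate axes that start at 0. The CK microglia lie at 5025 to 5725 and the CK-p25 microglia at 11101 or more, while the groups of both neuron sets overlap.

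Rpl41, the smallest protein of the large subunit, and Rpl32 had the largest differences. Rpl41 was at 131, 132, 163 and 134 FPKM in CK and at 433, 524, 420.4 and 404 FPKM in CK-p25 microglia, a log2 difference of 1.66 ± 0.10 (SE, n = 4 and 4 libraries; adjusted p = 9.32e-08 by limma). Rpl32 was at 201, 179, 239 and 198 FPKM in CK and at 598, 663, 601 and 629 FPKM in CK-p25 microglia, a log2 difference of 1.61 ± 0.09. In both genes every CK-p25 library lay above every CK library. Rpl39, a small protein that lines the exit tunnel for the new chain, rose by 1.55 on the log2 scale, with a wider spread (SE 0.19).

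In the small subunit, 32 of 34 genes were called higher with a median difference of 1.15 over the 34, and in the large subunit 46 of 48 with a median of 1.01. The smallest p in the family was that of Rps18, which sits at the head of the small subunit. Rps18 was at 88.9, 80.02, 93.6 and 89.0 FPKM in CK and at 233, 268, 263 and 239.9 FPKM in CK-p25 microglia, a log2 difference of 1.50 ± 0.08 (limma, adjusted p = 2.16e-08). Rps19, the gene most often mutated in Diamond-Blackfan anaemia, rose from 78.5 ± 2.63 to 209 ± 16.7 FPKM (SD, n = 4 libraries each), 1.40 on the log2 scale. All 4 CK libraries of Rps19 lay between 75.0 and 81.4 FPKM. Rps12 (1.50) and Rps20 (1.46) rose as well, and of the large subunit Rpl37a (1.49), Rpl36a (1.37), Rpl36 (1.28), Rpl19 (1.22) and Rpl13 (1.11). Rps16 (1.21), Rps14 (1.16) and Rps3a1 (1.15) complete the 15 genes with the smallest p, together with Rps23 and Rpl3 below.

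The same comparison was ordered by place in the ribosome. Since 78 of the 82 genes (95.1%) were called higher, the counts by place do not set a site apart. All 4 genes of the stalk and GTPase centre were called higher: Rplp0, the stalk base, rose from 97.5 to 183 FPKM, Rplp1 from 171 to 383, Rplp2 from 145 to 305 and Rpl12, which sits beside the base, from 24.4 to 62.4 FPKM. Both genes of the 5S particle, whose proteins can bind the p53 regulator Mdm2, rose, Rpl5 by 0.73 ± 0.10 and Rpl11 by 1.14 ± 0.14 on the log2 scale. At the peptidyl transferase region, Rpl3, Rpl8 and Rpl10 rose by 1.06, 0.65 and 0.83, and of the 8 proteins lining the exit tunnel 7 were called higher.

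At the sites of the small subunit, Rps2, Rps3 and Fau, where the mRNA enters, rose by 1.32, 0.86 and 1.16 on the log2 scale. All 5 genes at the mRNA exit were called higher, among them Rpsa, also known as the laminin receptor, which rose from 19.0 to 44.1 FPKM. At the decoding centre Rps15, Rps23 and Rps27a rose by 0.85, 1.25 and 1.15. Rps27a and Fau are made as fusions with ubiquitin or a ubiquitin-like protein. Rps6, the substrate of the S6 kinases, was at 20.9, 20.1, 22.6 and 19.3 FPKM in CK and at 42.4, 50.2, 43.9 and 42.6 FPKM in CK-p25 microglia, with no overlap. Of the 21 genes listed for Diamond-Blackfan anaemia, 19 were called higher, near the 95.1% called in the whole family.

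**Figure D2:**
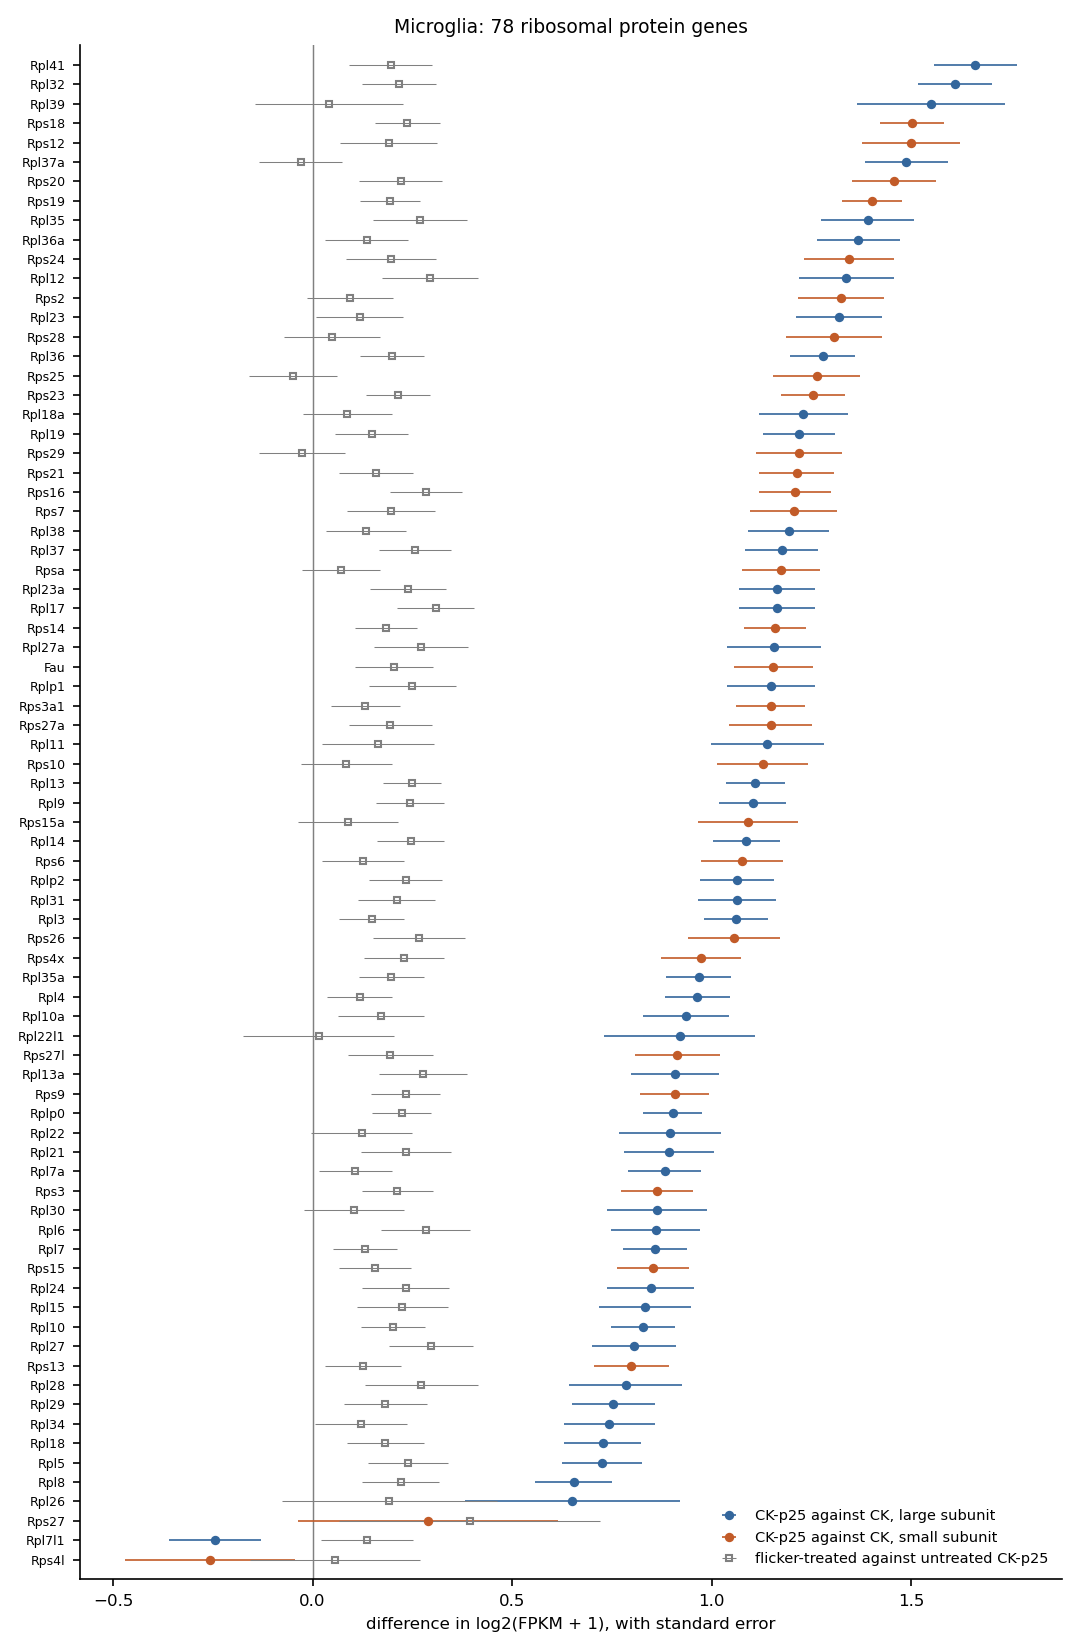
Difference in log2(FPKM + 1) of 78 of the 82 genes tested in microglia, with its standard error, for CK-p25 against CK (filled circles, by subunit) and for flicker-treated against untreated CK-p25 (open squares). The filled circles of all genes drawn but Rpl7l1 and Rps4l lie to the right of 0, near the median of 1.09 over the 82 genes, and the squares lie near their median of 0.20.

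The 4 genes that were not called are 2 paralogs and 2 genes with wide spread. Rpl7l1, a paralog of Rpl7 known for a role in ribosome assembly, was at 61.3, 55.5, 56.1 and 53.7 FPKM in CK and at 43.4, 56.0, 46.0 and 45.9 FPKM in CK-p25 microglia, a log2 difference of -0.24 ± 0.12 (limma, adjusted p = 0.140). Rescaled to the sum of other genes, this difference was -0.55 and passed the threshold as lower. Rps4l, a paralog of Rps4x, had a difference of -0.26 ± 0.21, and its groups overlapped; within replicates 3 and 4, a split chosen after seeing the data, it was -0.79 and passed as lower. Rpl26 had a difference of 0.65 ± 0.27 (limma, adjusted p = 0.0932), and it passed the threshold when replicate 1 of CK (0.82) or of CK-p25 (0.83) was left out and within replicates 3 and 4 (1.11).

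Rps27 was at 2.20 to 7.54 FPKM in CK and 2.28 to 8.36 FPKM in CK-p25 microglia. The row of its retrocopy Rps27rt held far more, 251 ± 10.7 FPKM in CK and 604 ± 38.4 FPKM in CK-p25 microglia, and was called higher, so reads of this gene may be split between the symbols. That row and 8 other rows of retrocopies and near copies were chosen after their values were seen. In contrast to the first pair of paralogs, Rps27l rose from 108 to 204 FPKM (0.91 ± 0.11 on the log2 scale) and Rpl22l1, the paralog of Rpl22, from 21.6 to 41.5 FPKM (0.92 ± 0.19; limma, adjusted p = 0.00233). Rpl22 itself rose from 9.63 to 18.9 FPKM, 0.90 ± 0.13 on the log2 scale.

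**Figure D3:**
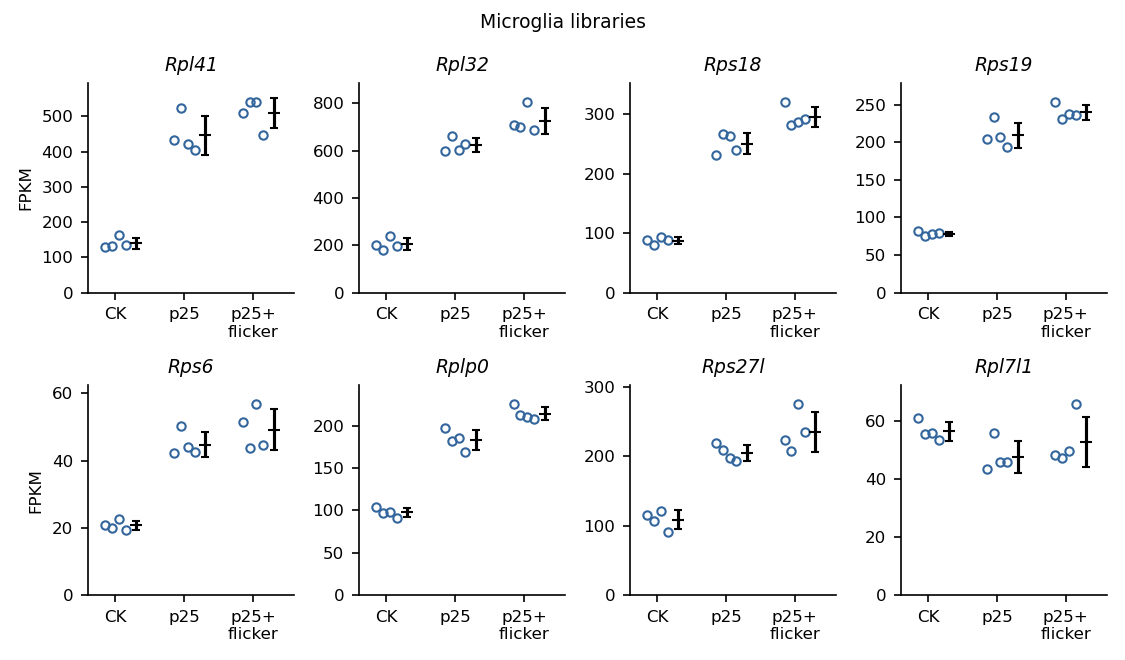
FPKM of 8 ribosomal protein genes in the 12 microglia libraries (circles, with mean and SD beside them), each panel with its own axis from 0. In Rpl41, Rpl32, Rps18, Rps19, Rps6, Rplp0 and the paralog Rps27l the CK libraries lie below all others, and in Rpl7l1 the groups overlap.

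The scale of the values bears on these numbers. Summed FPKM of genes that are neither small RNA nor in the family moved with the groups: it was 451195 to 483513 in CK, 555814 to 607578 in CK-p25 and 571380 to 620097 after GENUS. With each library rescaled to that sum, the median of all genes became -0.29 and that of the family 0.79, with 78 genes called higher and 1, Rpl7l1, called lower. On that scale 1033 of all genes were called higher and 3694 lower, against 1672 and 1130 as deposited. Among genes outside the family, short and abundant transcripts also had positive differences. The median was 0.28 for 326 other genes with transcripts under 750 bases and -0.05 for those of 3000 bases or more, and it was 0.24 for 712 other genes at 100 FPKM or more. Of the 822 other genes under 1500 bases and at 30 FPKM or more, 37.5% were called higher, with a median of 0.16. Within the family, the 40 genes under 750 bases had a median of 1.15 and the 41 longer ones 1.08, and the part of length and level in the result was not tested.

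Markers of cell types were summed for this comparison, and only the endothelial sums did not overlap between CK and CK-p25 microglia. Summed FPKM of 10 neuron markers was 5.23 to 25.2 in CK and 1.98 to 7.51 in CK-p25 microglia, and that of 6 oligodendrocyte markers was 149.9 to 956 and 134 to 231. Of the neuron markers 1 of 1 tested, Snap25, was lower, and of the oligodendrocyte markers 1 of 6 tested, Mag, was lower and 0 were higher. Summed FPKM of 6 markers of monocytes, neutrophils and border macrophages was 249 to 412.5 and 175 to 425, with 0 of 6 called. The 4 endothelial markers summed to 12.3 to 17.9 and 4.67 to 7.93 FPKM, with 1 of 3 tested higher (Flt1) and 1 lower (Pecam1), and the 6 astrocyte markers to 68.8 to 103 and 65.2 to 87.6 FPKM, with 1 higher (Gfap) and 1 lower (Slc1a3). The 12 microglia markers summed to 34459 to 42101 FPKM in CK and 39983 to 45338 in CK-p25, with 5 called higher, among them Trem2 (0.88), and 4 lower, among them P2ry12 (-1.82). Gad1, which marks inhibitory neurons, was listed at 0 in every CK-p25 microglia library. Their part in the difference of the ribosomal protein genes was not tested.

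Other genes of protein synthesis were counted in the same comparison, in which 16.1% of all tested genes were called higher and 10.9% lower. Of 23 tested mRNAs outside the family that carry a TOP motif or are counted with them, 18 were called higher and 0 lower, with a median difference of 0.74 on the log2 scale. Eef1a1, the elongation factor that delivers aminoacyl-tRNA, rose by 1.40 ± 0.10, from 257 to 679 FPKM. For ribosome assembly and RNA polymerase I, 7 of 39 factors were higher, near the share of all genes, none was lower, and the median was 0.06. Nop10, a part of box H/ACA particles, rose by 0.58 and Polr1d, a polymerase subunit, by 0.56.

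Initiation and elongation factors outside the TOP list had a median of 0.12 over 25 genes, 4 called higher and 1 lower, among them Eif3a, which rose by 0.82, and Eef2k, the kinase that inhibits Eef2, which fell by 1.14 on the log2 scale. Of 18 genes that control TOP mRNAs, 2 were higher and 3 lower. Larp1, which binds the TOP motif, rose by 1.30 ± 0.21 and Eif4ebp1, a translation repressor inactivated by mTOR, by 0.81 ± 0.11, while Rps6ka1, a ribosomal S6 kinase, fell by 0.96 and Rptor, the mTOR partner, by 0.43. The 77 genes of the mitochondrial ribosome, a list added after the data were seen, counted 12 higher and 3 lower (median 0.08). Of 19 short abundant mRNAs 14 were higher, led by the ferritin gene Fth1 (1.73), and 2 were lower. The counts called higher among initiation and elongation factors and mitochondrial ribosomal genes lie near the 16.1% of all tested genes called higher. The lists were not tested against each other.

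GENUS-treated microglia were then compared with untreated CK-p25 microglia, which asks what the flicker adds in the model. No ribosomal protein gene passed the threshold, and neither did any of the 10394 genes, of which 762 (7.33%) had an unadjusted p under 0.05. In the family 33 of 82 (40.2%) did. That count was 16 without untreated replicate 4, 18 without GENUS replicate 3, 19 without GENUS replicate 1 and 20 without untreated replicate 3, and 23 to 45 without each of the others, while 5.80% to 7.88% of all genes had such a p. Estimates above 0 were found in 79 of the 82 genes and 49.3% of all genes, and the median was 0.20 on the log2 scale. In 22 of the 82 genes every GENUS library lay above every untreated library, against 2.41% of all genes, and in 0 genes every GENUS library lay below, against 2.08%.

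The genes with the smallest p were Rpl13, a large subunit protein, Rpl17 and Rps16. Rpl13 was at 231, 249, 238 and 233 FPKM untreated and at 311, 286, 276 and 259.6 FPKM after GENUS, a log2 difference of 0.25 ± 0.07 that did not pass (limma, adjusted p = 0.536). Rpl17 had a difference of 0.31 ± 0.10 and Rps16 of 0.28 ± 0.09, and the groups did not overlap in these 3 genes. Among the genes always described, Rplp0 was at 197, 182, 185 and 169 FPKM untreated and at 225, 213, 210.4 and 208 FPKM after GENUS, without overlap, and Rps6 at 42.4 to 50.2 and 43.8 to 56.8 FPKM, with overlap. Estimates below 0 were found for Rps25 (-0.05), Rpl37a (-0.03) and Rps29 (-0.03).

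Transcript length moved with this comparison too. Of other genes, estimates above 0 were found in 83.1% of those under 750 bases, 73.1% of those from 750 to 1500, 53.7% of those from 1500 to 3000 and 31.2% of those of 3000 bases or more. The median was 0.12 for other genes under 1500 bases at 30 FPKM or more, of which 85.9% had estimates above 0 and 8.27% did not overlap between the groups. In the family, the 40 genes under 750 bases had a median of 0.19 and the 41 longer ones 0.22. Of 77 mitochondrial ribosomal protein genes 66 had estimates above 0, with a median of 0.14, and all 19 short abundant mRNAs did, with a median of 0.16. Summed markers of monocytes, neutrophils and border macrophages were 40.9 to 1105 FPKM after GENUS. The part of transcript length and of these cells was not tested.

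Same-numbered libraries of these groups deviated together (r 0.105 to 0.338 in 4 of 4 pairs). With the number as a replicate block the count of called genes stayed at 0 in the family, and the smallest adjusted p was 0.502 by limma.

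GENUS-treated microglia against CK microglia, a comparison that shares its CK libraries with the first, gave 79 of 82 genes higher and 0 lower, against 17.3% of all genes called higher and 13.4% lower. In 78 the groups did not overlap (16.8% of all genes), and 80 estimates were above 0 (47% of all genes). An unadjusted p under 0.05 was found for 79 of 82 genes and 40.7% of all genes. The median was 1.23 on the log2 scale. Rpl41 rose by 1.86, Rpl32 by 1.83, Rps18 by 1.74, Rps20 by 1.68, Rps19 by 1.60, Rps16 by 1.49, Rpl36 by 1.48, Rpl17 and Rps23 by 1.47, Rpl37 by 1.43, Rpl13 by 1.36, Rpl9 by 1.35, Rps14 by 1.34, Rpl14 by 1.33 and Rplp0 by 1.13. Beside them, the gene added to those called in untreated mice was Rpl26 (0.84 ± 0.27; limma, adjusted p = 0.0294). Rpl26 lost its call when replicate 2 or 3 of CK or replicate 2, 3 or 4 of the GENUS group was left out, with differences of 0.60 to 0.81. It also lost it rescaled to the sum of other genes (0.52), within replicates 1 and 2 (0.44) and with no minimum level (0.84). Rpl7l1 (-0.11), Rps4l (-0.20) and Rps27 (0.68) did not pass, and rescaled to the sum of other genes Rpl7l1 was at -0.44 and passed as lower.

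In neuronal nuclei of the CK-p25 mice, where p25 is made, no ribosomal protein gene was called between untreated CK-p25 and CK, against 0.891% of all genes called higher and 0.119% called lower. An unadjusted p under 0.05 was found for 12 of 81 genes (14.8%) and for 11.2% of all genes. Without CK replicate 1 the count was 7 of 80 (10.6% of all genes) and without CK replicate 5 it was 7 of 81 (10.8%), so the family's share was then below that of all genes, and without CK-p25 replicate 4 it was 8 of 81 (9.77%). Of the estimates 34 were above 0 (49.5% of all genes) and 47 below, and the median was -0.11 on the log2 scale. The median was -0.19 without CK replicate 1, -0.18 without CK replicate 4 and -0.03 without CK-p25 replicate 4. Of 24 other TOP mRNAs 6 had estimates above 0 (median -0.18), and of the 19 short abundant mRNAs 5 did (median -0.29). Summed FPKM of the family was 675 to 870.0 in CK and 553 to 792 in CK-p25 nuclei, so the groups overlapped. In 0 genes did every CK-p25 library lie above (2.05% of all genes) or below (0.804%) every CK library.

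The smallest p was that of Rplp1. It was at 46.8, 64.4, 71.6, 49.3 and 47.8 FPKM in CK and at 61.5, 22.7, 27.3, 33.03 and 27.6 FPKM in CK-p25 neurons, a log2 difference of -0.75 ± 0.21 (limma, adjusted p = 0.144). Replicate 1 of the CK-p25 group lay among the CK values and the other 4 below all of them, and without that library the difference was -0.98 ± 0.14 and passed the threshold (limma, adjusted p = 0.00294). Rps19 had a difference of -0.80 ± 0.26 and Rpl11 of -1.12 ± 0.39, with overlapping groups. Upward, Rplp0 (0.53 ± 0.23) and Rpl37 (0.54 ± 0.22) had the smallest p beside Rps28.

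Rps28, at the mRNA exit, had no signal listed in any of the 5 CK libraries (0 FPKM) and was at 9.43, 7.56, 0, 0 and 6.58 FPKM in CK-p25 neurons, so no fold is given. Rps6 was at 5.66 to 6.47 FPKM in CK and 4.74 to 6.72 FPKM in CK-p25 neurons. Estimates of Rplp2 (0.14), Rpsa (0.18), Rps27a (-0.56), Fau (-0.58), Rpl5 (0.07) and Rpl22 (-0.05), and of the paralogs Rpl7l1 (-0.25), Rpl22l1 (-0.96), Rps4l (-0.20) and Rps27l (0.85), did not pass. C1qc, a microglial complement gene listed at 0 in CK, and Gfap, an astrocyte filament gene, were called higher in CK-p25 nuclei, with summed microglia markers of 7.56 to 13.0 FPKM in CK and 12.2 to 19.8 FPKM in CK-p25, and 20.2 FPKM or more after GENUS. Of 10 neuron markers 2 had estimates above 0, with a median of -0.16, and 1, the neuronal tubulin gene Tubb3, was called lower (-0.65 ± 0.13; limma, adjusted p = 0.0209). The neuron markers summed to 1246 to 1365 FPKM in CK and 1158 to 1283 FPKM in CK-p25, and the 6 oligodendrocyte markers to 76.9 to 114 and 60.6 to 78.9 FPKM, with 0 of 5 tested above 0. Astrocyte markers summed to 14.2 to 18.6, 25.5 to 36.6 and 35.6 to 110.0 FPKM in CK, CK-p25 and GENUS-treated CK-p25. Their part in the values of the family was not tested.

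GENUS against untreated CK-p25 neurons called 0 of 81 genes and 0% of all genes by limma, with an unadjusted p under 0.05 for 10 of 81 (12.3%) and 7.42% of all genes. Estimates above 0 were found for 48 of 81 genes (49.8% of all genes), and the median was 0.10 (0.036 without GENUS replicate 3 and 0.18 without untreated replicate 1). Rplp2, the partner of Rplp1 in the stalk, was at 18.7, 15.8, 19.4, 19.98 and 23.7 FPKM untreated and at 26.8, 29.0, 39.7 and 30.1 FPKM after GENUS, a log2 difference of 0.65 ± 0.21 without overlap (limma, adjusted p = 0.551). Rpl15 (0.61 ± 0.19) was the other gene without overlap, and 1.29% of all genes lay without overlap in that direction. Rps19 had a difference of 0.75, and the smallest p downward were those of Rpl5 (-0.61), Rps21 (-1.37) and Rplp0 (-0.52).

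Against CK, GENUS-treated CK-p25 neurons had 0 of 81 genes called, with 1.07% of all genes higher and 0.382% lower. An unadjusted p under 0.05 was found for 6 of 81 genes and 14.4% of all genes, and 38 estimates were above 0 (49.7% of all genes). The count of 6 became 1 without GENUS replicate 3, 2 without CK replicate 3, 3 without CK replicate 1 or 5, and 4 to 8 without each of the others. The groups did not overlap in Rplp2 (higher, 3.71% of all genes) and Rpl41 (lower, 2.58%). Rplp2 had a difference of 0.79 ± 0.21 (limma, adjusted p = 0.0703) and passed without replicate 2 of CK (0.94; limma, adjusted p = 0.0335). Rpl41 was at 22.4 to 30.3 FPKM in CK and 12.9 to 20.1 FPKM after GENUS, a difference of -0.56 ± 0.20 that did not pass. In none of the 3 comparisons was a gene of the lists of other TOP mRNAs, assembly, TOP control or initiation and elongation called in these neurons.

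P301S neurons had 0 of 81 genes called against wild type, and 1 of 12239 genes (0.00817%) was called higher. An unadjusted p under 0.05 was found for 3 of 81 genes and 5.64% of all genes, and for 1 to 6 genes when 1 library was left out (1 without P301S replicate 1 or 2, 6 without wild type replicate 2 or 3). Estimates above 0 were found for 21 genes (25.9%) against 51.3% of all genes, and the median was -0.20 (-0.13 without wild type replicate 6, -0.31 without wild type replicate 2, -0.32 without P301S replicate 5). The groups overlapped in every gene of the family, while 0.204% of all genes lay wholly higher and 0.0735% wholly lower. Rpl27, a large subunit protein, was listed at 0 in 5 of the 6 wild type libraries and at 3.29 FPKM in the other, and was at 0.92 to 2.44 FPKM in P301S, with overlapping groups. Its log2 difference was 1.12 ± 0.36 and did not pass. The estimates were 0.71 for Rpl11, 0.28 for Rpl21 and -0.87 for Rpl31, and the smallest adjusted p in the family was 0.856 by limma. Estimates for Rps6 (0.23), Rplp0 (-0.37), Rplp1 (-0.20), Rplp2 (-1.08), Rpsa (0.03), Rps27a (0.45), Fau (-0.18), Rpl5 (-0.15), Rpl22 (-0.13) and Rps19 (0.00) did not pass either. Of 24 other TOP mRNAs 6 had estimates above 0, and of the 19 short abundant mRNAs 2 did.

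The libraries of the P301S set fall apart in a way that the groups do not explain. Over all genes, the first principal component separates wild type and P301S replicates 1 to 3 and GENUS replicates 1 and 2, 8 libraries, from the other 9. The family's median deviation from its set mean was -0.31 to 0.10 on the log2 scale in the 8 libraries and 0.12 to 0.49 in the other 9, and its summed FPKM was 456 to 680.4 in the first and 711 to 1115 in the second. Both sides hold libraries of all 3 groups, and the component held 11.2% of the variance. Small RNA genes took 54.9% to 62.8% of summed FPKM in the 8 libraries and 61.0% to 75.9% in the other 9. Genes of the family listed at 0 numbered 10 to 23 in the 8 libraries and 5 to 10 in the other 9. How these values go with the split was not tested. With this split as a term, 0 of 81 genes were called in each of the 3 comparisons. The median of P301S against wild type was -0.20 with the term, -0.11 within the 8 libraries and -0.28 within the 9.

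**Figure D4:**
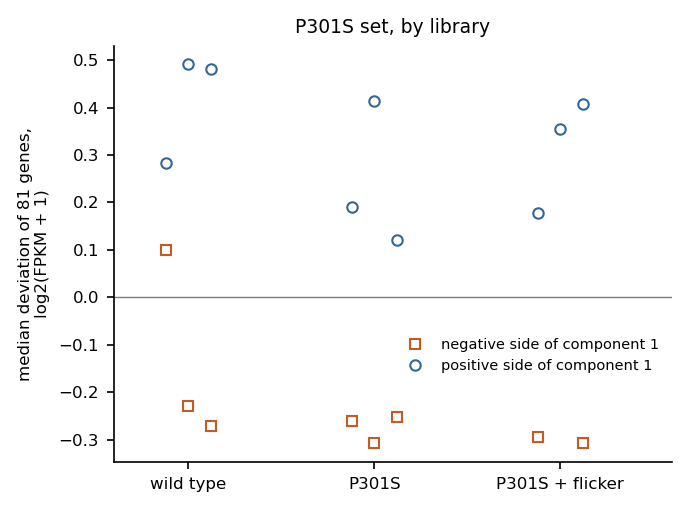
Median deviation of the 81 tested genes from their mean over the P301S set, on the log2(FPKM + 1) scale, for each of the 17 libraries by group, marked by the side of the first principal component over all genes. In every group the circles (0.12 to 0.49) lie above the squares (-0.31 to 0.10).

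GENUS in P301S neurons also gave 0 of 81 genes called, against untreated P301S (0% of all genes) and against wild type (0%). By limma an unadjusted p under 0.05 was found for 2 of 81 and 1 of 81 genes in these comparisons, and for 4.28% and 5.73% of all genes. The medians were 0.14 and -0.09, with 51 and 36 estimates above 0 (49.8% and 50.2% of all genes). Leaving out 1 library moved the first median from 0.023 (P301S replicate 2) to 0.27 (P301S replicate 5) and the second from -0.19 (wild type replicate 2) to -0.00014 (GENUS replicate 1), and gave 1 to 6 and 1 to 4 genes at an unadjusted p under 0.05. The groups overlapped in every gene of the family, against 0.229% higher and 0.204% lower of all genes for the first and 0.261% and 0.253% for the second. Rpl27 was listed at 0 in 2 of the 5 GENUS libraries and was at 0.737, 1.08 and 1.07 FPKM in the others, a difference of -0.89 ± 0.37 from untreated P301S (limma, adjusted p = 0.999), and the groups overlapped. Upward, Rpl26 had a difference of 1.79 ± 0.87 that did not pass and rests on GENUS replicates 4 and 5 (19.3 and 23.3 FPKM). Against wild type the smallest p were those of Rpl21 (0.67), Rps7 (0.82) and Rps9 (-0.69).

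The p25 effect was compared between the cell types by a test of the difference of the effects over the 8929 genes tested in both sets. This test, and the others of its kind below, fitted both sets together with 1 residual variance per gene. The median coefficient of variation was 38.9% to 45.2% in these neuron groups and 7.66% to 9.80% in the microglia groups. The standard errors and p-values of the difference therefore rest on a spread pooled over unlike sets. In 43 of the 81 genes the effect was larger in microglia than in neurons and in 0 it was smaller, against 7.37% and 5.52% of all genes. The median difference was 1.13 on the log2 scale. In 36 of the 43 genes the estimate in neurons was below 0, against 47 of all 81 genes. The test itself favours genes with low neuron estimates, and 0 of the 81 were called in neurons. The smallest p was that of Rpl41, with an effect of 1.66 in microglia and -0.27 in neurons and a difference of 1.93 ± 0.24 (limma, adjusted p = 5.67e-06), and Rps19, Rpl3 and Rplp1 followed with differences of 2.20, 1.36 and 1.90. Sort, RNA fraction and kit differ between the sets, and their part in this difference was not tested.

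**Figure D5:**
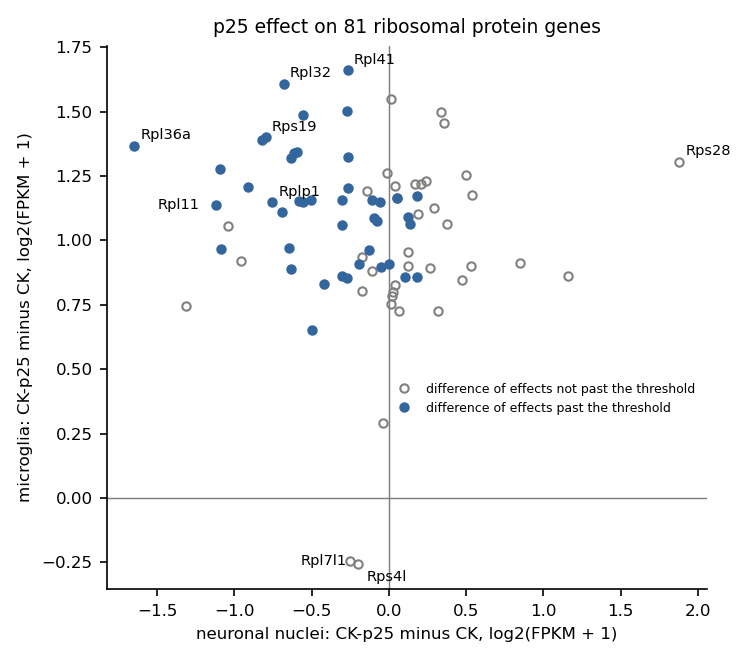
Difference in log2(FPKM + 1) between CK-p25 and CK for 81 ribosomal protein genes in neuronal nuclei (horizontal) and in microglia (vertical), 1 point per gene. Filled points, 43 genes, passed the test of the difference between the effects, which favours low neuron estimates. Most of them lie left of or near 0 in neurons while lying above 0.65 in microglia.

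The GENUS effect did not differ past the threshold between microglia and neurons of CK-p25 mice in any of the 81 genes (0% of 8929 genes in either direction; smallest adjusted p in the family 0.473 by limma). Between the neuron models, 0 of 80 genes differed past the threshold in the effect of the model (0% of 12040 genes higher and 0.0997% lower) or of GENUS (0% and 0%). The designs have 4 to 6 libraries a group, and a p that misses the threshold does not show that the effects are alike.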

How the data were processed

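Gene values are FPKM as deposited by the authors, 1 file per library, for 43 libraries. The submitters' processing notes list STAR, Cufflinks 2.0.0 and build mm9 without saying what each did. Depth, annotation and counting of multiply mapped reads are not given in those sources, so no counting interval is printed.

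Groups and replicate numbers came from sample titles. Genes with a mean of 1 FPKM or more in a set were transformed to log2(FPKM + 1), which understates the change of low genes, and fitted per set over its 3 groups in limma 3.58.1 (R 4.3.3), with a mean-variance trend, two-sided p-values and Benjamini-Hochberg adjustment over all tested genes. The fit was run on simulated data with independent normal noise for each gene. Such data hold no deviation shared by the genes of a library, so that run does not cover the library differences described above. Members and lists were chosen with earlier results of these data known. Named genes are called members, at most 15 a direction by p, otherwise some of the 3 with the smallest p. A standing list of members and paralogs, and the 3 highest and lowest, were named as well. Role examples beyond these were chosen after their values were seen. A few genes are counted but not reported by name here.

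Same-numbered untreated and GENUS CK-p25 microglia libraries deviated together over genes (r 0.105 to 0.338, 4 of 4 pairs), but no label pairs them. On the second principal component, their replicates 1 and 2 lay at 0.21 to 0.39, and 3 and 4 at -0.45 to -0.27. Whether the number pairs libraries is therefore not known. Alternatives were another pseudocount, minimum or scaling, 2 groups alone, a replicate block and leaving out each library. Transcript lengths (GENCODE, by symbol) covered 92.6% of genes tested in microglia.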

Additional observations from a re-analysis of the deposited data

Results flagged for a closer look

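The effect of p25 on ribosomal protein mRNA differed between microglia and neuronal nuclei in 43 genes, by the test of the difference given above. The differences, microglia minus neurons on the log2 scale, were 1.93 for Rpl41, 2.20 for Rps19, 1.36 for Rpl3, 1.90 for Rplp1, 1.94 for Rps24, 1.59 for Rps2 and 1.26 for Rpl15. Those of further genes were 0.97 for Rps15a, 1.09 for Rpl4, 1.17 for Rps3, 0.95 for Rpl22, 1.95 for Rpl23, 2.26 for Rpl11 and 2.29 for Rpl32. The cell types were sequenced from different RNA fractions with different kits.

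Rpl41 in CK microglia had 1 library, replicate 3 at 163.3 FPKM, set apart from the other 3 at 131 to 134 FPKM. Over all members and groups with a mean of 1 FPKM or more, a library was set apart in 40 of 719 cases (5.56%), and chance gives about 1 in 20.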

How the results depend on the processing

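Under all alternatives counts of called genes stayed within 1.5 times, and median differences moved by less than the spread between libraries, with the exceptions below. On the log2 scale that spread was 0.137 in CK-p25 neurons and 0.340 in P301S neurons, more than the size of every neuron median. A change of sign in neurons was therefore not counted as an exception. For GENUS CK-p25 against CK neurons, leaving out 1 library gave medians of -0.059 to 0.032. Rescaling to the summed FPKM of other genes moved the family's median in microglia to 0.79 for CK-p25 against CK and 0.91 for GENUS against CK, and the ratio of CK microglia to CK neuron levels to 3.12. That scaling shifts the median of all genes to -0.29 and -0.32. It moves the calls among all genes from 1672 higher and 1130 lower to 1033 and 3694 for CK-p25 against CK, and from 1802 and 1393 to 1091 and 4056 for GENUS against CK. Leaving out 1 library gave 0 to 1 called genes for CK-p25 against CK neurons (Rplp1 without CK-p25 replicate 1) and 0 to 1 for GENUS CK-p25 against CK neurons (Rplp2 without CK replicate 2). In microglia it gave 78 to 79 called genes in both comparisons with CK and medians of 1.04 to 1.13 and 1.21 to 1.29. The genes with a larger p25 effect in microglia numbered 33 with a pseudocount of 0.1, 32 of 47 with a minimum of 5 FPKM, 35 rescaled, 44 with the replicate block and 40 to 49 leaving out 1 library. The replicate block gave 78 and 80 called genes against CK in microglia and 0 in both neuron sets; outside the pair of groups named with the methods, same-numbered libraries did not all deviate together (r -0.102 to 0.142), so that block shares only a number. Of single genes in the 2 microglia comparisons with CK, 10 calls were lost and 7 gained over all alternatives, among them Rpl22l1, lost within replicates 3 and 4 (0.68 and 0.82), and Rps27, gained with the block for GENUS against CK (0.68). With the block, calls among all genes went from 112 higher and 15 lower to 66 and 6 for CK-p25 against CK neurons, and from 135 and 48 to 69 and 15 for GENUS against CK neurons. Splitting microglia by replicates 1 and 2 against 3 and 4, and P301S libraries by the first component, was chosen after seeing the data; the family's median for CK-p25 against CK was 1.14 and 1.02 within the sides.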
